A study of Mus musculus with 9 samples.

Results

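PPARγ binding was described at the loci of 8 genes of de novo lipogenesis in interscapular brown adipose tissue (iBAT): Fasn, Acaca, Acly, Scd1, Scd2, Elovl6, Srebf1 and Mlxipl. A peak was counted as belonging to a locus when its midpoint lay in a fixed window of the mouse genome mm10 around the gene, and Scd1 and Scd2, which are neighbours, share a window. The windows span 50 to 310 kb. By this rule 106 of the 66066 PPARγ peaks were taken, with 9 at Fasn, 28 at Acaca, 7 at Acly, 16 at Scd1/Scd2, 24 at Elovl6, 9 at Srebf1 and 13 at Mlxipl. Of the 106, 66 lie in introns, 7 over exons and 33 between genes, 10 cover a start site of a listed gene, and for 52 the nearest curated start site is that of another gene. Peaks are numbered within a locus by their position along the chromosome. For Elovl6 peaks 1 to 22 the nearest start site is that of Gm35986, which Elovl6 peak 1 covers together with that of Elovl6. The iBAT came from 10-week-old male mice of the inbred strain C57BL/6J, which were fed chow and kept under light and dark phases of 12 h. Tissue was taken at 8 time points, every 3 h from Zeitgeber time (ZT) 0, the start of the light phase, to ZT21. Each time point is 1 pool of tissue, from 8 mice and of 250 to 350 mg according to the labels, and 1 ChIP-sequencing library, so no time point was replicated and the spread between mice or preparations could not be estimated. The question these data address is whether the amount of PPARγ at each site changes over the day.

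De novo lipogenesis builds fatty acids from carbohydrate. Acly cleaves cytosolic citrate to acetyl-CoA, Acaca (acetyl-CoA carboxylase 1) turns acetyl-CoA into malonyl-CoA, Fasn (fatty acid synthase) joins these units to palmitate, Elovl6 lengthens palmitate, and the desaturases Scd1 and Scd2 put a double bond into the product. Srebf1 (encoding SREBP-1) and Mlxipl (encoding ChREBP) are the transcription factors that switch these genes on in response to insulin and to glucose, and brown fat is a tissue in which the pathway is active. PPARγ is the nuclear receptor required for adipocyte formation, and it pairs with the retinoid X receptor to bind direct repeats of AGGTCA with a spacer of a single base (DR1).

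Sequences are shown for sites at which PPARγ binding was measured. The DR1 searched was AGGTCA, any base and AGGTCA again. Its closest matches among the member peaks had 1 mismatch, and 10 such elements were found on either strand of the 106 peaks. Of these, 6 lie in bases marked as repeats in the reference genome and 4 do not. The 4 elements outside repeats, and the repeat element at the 3′ end of Fasn, are printed 5′ to 3′ on the strand of the match with the element in capitals and 5 flanking bases on each side, from the mm10 primary assembly (GRCm38.p6).
Elovl6 peak 10, intron 2 (chr3:129582620-129582632, + strand): tttctAGGGCAAAGGTCAtttgg
Mlxipl peak 7, downstream start site (chr5:135109168-135109180, - strand): catggAGGTCAGAGTTCAgacaa
Acaca peak 6, upstream of the gene in intron 2 of Gm11437 (chr11:84164509-84164521, - strand): agagaAGGCCAAAGGTCAagtac
Acaca peak 24, intron 38 (chr11:84322274-84322286, - strand): ttagtAGGTCAAAAGTCAggtac
Fasn peak 3, 3′ end of the gene, repeat (chr11:120805991-120806003, + strand): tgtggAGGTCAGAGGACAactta

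Relative to the consensus, with positions counted from 1 at its 5′ end, the consensus base first and the base of the site last, the mismatch was T4G in Elovl6 peak 10, G10T in Mlxipl peak 7, T4C in Acaca peak 6, G9A in Acaca peak 24 and T11A in Fasn peak 3. The element of Mlxipl peak 7 lies past the start site that its peak covers, in intron 1 of the gene. The element printed for Fasn peak 3 was found with the same 13 bases in Fasn peak 4 and Acaca peaks 14 and 18, each time in a repeat. With up to 2 mismatches, 32 of the 106 member peaks (30.2%) held a DR1. Among all peaks the share was 23.6%, and among peaks whose length was within 10% of that of a member it was 32.2% on average. An element is a match of letters, and PPARγ was not mapped to single elements.

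Mlxipl has 2 start sites in curated RefSeq transcripts, and a PPARγ peak covers each of them. The 250 bases before each start site are shown, since the fitted maxima of binding at the upstream and the downstream start site lay in opposite phases of the day. RefSeq holds the promoter window of 6 of the 8 genes. Capitals mark the E-box CACGTG, the sequence that the clock factors CLOCK and BMAL1 and other bHLH factors recognize.
Mlxipl upstream start site (GRCm38.p6, chr5:135089640-135089889, + strand): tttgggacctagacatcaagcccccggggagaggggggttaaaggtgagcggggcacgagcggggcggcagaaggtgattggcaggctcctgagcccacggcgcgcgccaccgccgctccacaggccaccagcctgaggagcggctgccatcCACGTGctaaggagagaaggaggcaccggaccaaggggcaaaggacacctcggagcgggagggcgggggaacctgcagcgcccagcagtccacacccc
Mlxipl downstream start site (GRCm38.p6, chr5:135106641-135106890, + strand): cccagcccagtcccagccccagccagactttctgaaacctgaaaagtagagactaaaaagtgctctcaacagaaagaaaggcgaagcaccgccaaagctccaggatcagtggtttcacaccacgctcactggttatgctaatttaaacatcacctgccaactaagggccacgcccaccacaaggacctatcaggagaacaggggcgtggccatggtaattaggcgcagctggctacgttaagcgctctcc

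The upstream window holds 1 CACGTG and the downstream window holds 0, and 6.02% of the 32851 RefSeq promoter windows cut to the same 250 bases hold at least 1. The contrast is limited to these windows. Over the whole peaks, Mlxipl peak 4 at the upstream start site held 1 CACGTG and Mlxipl peak 7 at the downstream start site held 2. Over all member peaks, an E-box was found in 25 of 106 (23.6%), compared with 25.0% of all peaks of about the same length. For DR4, the element of the liver X receptor, searched as AGGTCA, 4 bases of any kind and AGGTCA with up to 2 mismatches, the numbers were 22 of 106 (20.8%) and 21.3%. A DR4 match can overlap a DR1 match, and all motifs were searched on both strands.

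The reads in peaks numbered 29572225 in the shallowest library (ZT18) and 34264812 in the deepest (ZT6). Values are given as normalized counts, scaled by these totals and by TMM factors from edgeR (0.959 to 1.04). An interval in brackets after a count is a 95% Wilson interval, which covers counting error only. Oscillation was tested in 2 ways: with JTK-cycle, which ranks the 8 values against curves of 21 and 24 h and has an exact null, called at an adjusted P value under 0.05, and with a 24-h cosine fitted by edgeR's quasi-likelihood method, called at a Benjamini-Hochberg adjusted P value under 0.05 over all 66066 peaks. For 8 values, JTK-cycle can give only a few adjusted P values, and those under the threshold are 0.000744, 0.00595 and 0.0260. Each JTK-cycle value printed below as exact P is this adjusted P value. It comes from the exact null and is Bonferroni-adjusted within the peak over the combinations of period and lag tried. Among all orders of 8 values, 1.86% give 0.0260 or less and 4.70% give 0.0826 or less. The amplitude is the log2 distance from the fitted mean to the fitted maximum, and the estimated peak is the time of that maximum. Departures from the cosine serve as the error, because no time point has a replicate. In whole tissue, a change in the share of cells that carry PPARγ and a change of binding per cell cannot be told apart.

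Strong and weak peaks differed in their course over the day. The 7723 peaks of the whole table with a mean normalized count of 1000 or more stood at a median of 106% of their own mean at ZT6, 93.8% at ZT15 and 94.6% at ZT18. Weaker peaks stood at 98.1%, 100.4% and 100.5% (medians) at those times. Whether this belongs to the libraries or to PPARγ cannot be told apart with 1 library per time point, and results on strong peaks are therefore given also after cyclic loess normalization, which removes trends with strength. Peaks near genes that mark brown adipocytes were among the strong ones. Of the 6 genes in that list, Ucp1, Cidea, Adipoq, Fabp4 and Plin1 had peaks, with strongest mean counts of 6478 to 10552, while Prdm16 was the nearest gene of 0 peaks. Of 6 genes that mark liver, muscle or leukocytes, 3 had peaks, with strongest mean counts of 2824 (Apoa1), 539.9 (Alb) and 58.5 (Ptprc). The strongest Apoa1 peak was thus also above 1000. Apoa1 was the nearest gene of 17 peaks, compared with 2 (Fabp4) to 8 (Ucp1) for the brown adipocyte genes with peaks.

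Every locus had peaks that were called oscillating by at least 1 of the tests, and among the called peaks of Elovl6 and Srebf1 all estimated peaks lay in the light phase, while those of the other loci lay in both phases. JTK-cycle called 18 of the 106 member peaks (17.0%), compared with 11.6% of all peaks. The cosine called 24 (22.6%), compared with 13.4% of all peaks, and 9 (8.49%) were called by both and 33 (31.1%) by either, compared with 6.71% and 18.3% of all peaks. The excess of cosine calls rested on the ZT18 library, without which the cosine called 2.83% of the members and 4.64% of all peaks, and it held without any other single library. Of the 18 JTK-cycle calls, 12 had a lag before ZT12 and 6 at ZT12 or later, and these rules called 5.97% and 5.66% of all peaks. The P values of JTK-cycle are adjusted within a peak only. After Benjamini-Hochberg adjustment over all peaks, 0 members passed at 0.05, and the smallest q value was 0.0968 (Acly peak 6). The smallest q value over all peaks was also 0.0968, so no peak of the whole table passed. The member peaks were also stronger than the rest, with a median mean count of 301 compared with 224, and longer, with a median of 1211 bases compared with 812. Within the class of 1000 or more, the cosine called 10 of 27 members (37.0%) and 27.4% of all peaks, and below it 14 of 79 (17.7%) and 11.5%. The median log2 amplitude was 0.21 over the members and 0.17 over all peaks.

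Of the 24 members called by the cosine, 19 had an estimated peak in the light phase (ZT0 to before ZT12) and 5 in the dark phase, and the same rules called 7.58% and 5.80% of all peaks. All 7 called Elovl6 peaks were in the light phase. The 5 in the dark phase were Fasn peak 3, Acaca peak 27, Scd1/Scd2 peak 3 and Mlxipl peaks 5 and 6, each with a mean count under 1000.

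**Figure D1:**
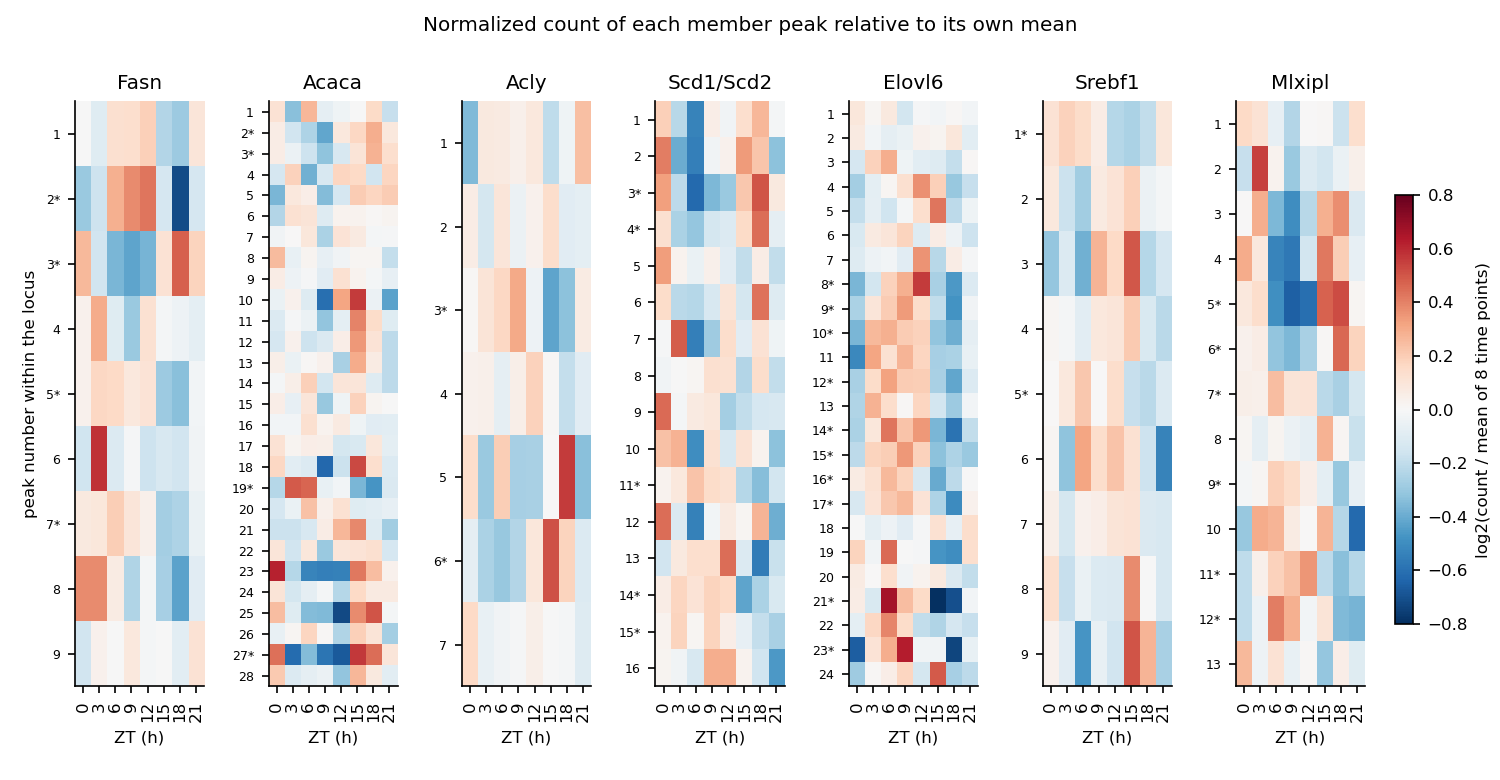
Normalized counts of the 106 member peaks, as log2 of the count over the peak's own mean of 8 time points, with peaks in rows (numbered along the chromosome within each locus) and time in columns. An asterisk marks a peak called by JTK-cycle or by the cosine, 33 in all. Elovl6 peaks 8 to 17 are red at ZT6 and blue at ZT18, while Scd1/Scd2 peaks 1 to 4 are blue at ZT3 and ZT6 and Mlxipl peaks 3 to 6 at ZT6 and ZT9.

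In total, 3 peaks kept their cosine call at 0.05 in every setting run, with any library left out, under each other normalization and with DESeq2: Fasn peak 3, Scd1/Scd2 peak 3 and Elovl6 peak 14. Without the ZT18 library, these were the only members that the cosine called.

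Srebf1 had the strongest member peak. Srebf1 peak 5 (chr11:60203581-60212333) covers the downstream start site and part of intron 1, and its mean normalized count of 6829 was above 99.9% of all peaks. Its normalized counts were 6852, 7253, 7914, 6852, 7513, 6020.2, 5882 and 6343 from ZT0 to ZT21. Values from ZT0 to ZT12 were all higher than those from ZT15 to ZT21. The cosine had an amplitude of 0.17 ± 0.042 (SE) with an estimated peak at ZT6.17 ± 0.925 h (SE) (adjusted P = 0.0354), whereas JTK-cycle did not call it (exact P = 0.212). After cyclic loess normalization the amplitude was 0.0032 and the adjusted P value 0.997. At ZT6 it stood at 116% of its own mean, compared with 106% for all strong peaks, and at ZT18 at 86.1%, compared with 94.6%. Leaving out each library gave adjusted P values of 0.0242 to 0.196, above 0.05 without ZT6, ZT15, ZT18 or ZT21.

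Srebf1 peak 7 (chr11:60219731-60226691) covers the 2 upstream start sites. Its normalized counts were 5144, 4533, 5109, 5168, 5359, 5409, 4612 and 4567 from ZT0 to ZT21. It was flatter than peak 5, with an amplitude of 0.092 ± 0.044 (SE), and was not called (cosine adjusted P = 0.297, after cyclic loess 0.0702; JTK exact P = 0.212). Per length, the level at both start sites was similar, with 780.2 normalized counts per kb at peak 5 and 717 at peak 7. The other called site was Srebf1 peak 1 (chr11:60182029-60183343), 27.8 kb downstream of the start site and in intron 2 of the neighbour Rai1. It had 699.6, 731, 715, 671, 552, 540.4, 562 and 688 from ZT0 to ZT21. This peak was high from ZT21 to ZT9 and low from ZT12 to ZT18, and both tests called it (JTK exact P = 0.00595; cosine adjusted P = 0.0352, estimated peak ZT2.86 ± 0.923 h (SE)). Its cosine call was lost without any of ZT6, ZT9, ZT12, ZT15 or ZT18 (adjusted P up to 0.137), and cyclic loess kept both calls (JTK exact P = 0.00595; adjusted P = 0.0470). Srebf1 peak 9, in intron 12 of Tom1l2, had the largest ratio of the locus (1.97). It had 326, 299, 229, 306, 287, 452, 384 and 266 from ZT0 to ZT21. It was lowest at ZT6, with 229 (202 to 260.5), and highest at ZT15, with 452 (413 to 495), and neither test called it (cosine adjusted P = 0.138; JTK exact P = 0.467). The other 5 peaks of the locus had mean counts of 113 to 1195 and ratios of highest to lowest value of 1.35 to 1.85, and none was called.

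At Mlxipl, the fitted maximum of binding lay at night at the upstream start site and by day at the downstream start site, and each of the 2 sites passed the test under some normalizations only. The upstream start site is covered by Mlxipl peak 4 (chr5:135088975-135091307) and the downstream start site by Mlxipl peak 7 (chr5:135106570-135111432), the strongest of the locus. Peak 4 had 1717, 1477, 967, 940, 1259, 1869.6, 1598 and 1334 from ZT0 to ZT21. It was lowest at ZT6 and ZT9 and highest at ZT15 and ZT0. Peak 7 had 5871, 5860, 6743, 6113, 6153, 4901, 4749 and 5168 from ZT0 to ZT21. It was highest at ZT6, and its lowest values were those at ZT15, ZT18 and ZT21. Peak 7 was called by the cosine (amplitude 0.22 ± 0.042 (SE), estimated peak ZT6.26 ± 0.741 h (SE), adjusted P = 0.0127) and not by JTK-cycle (exact P = 0.212). Peak 4 had a larger amplitude of 0.37 ± 0.094 (SE) with an estimated peak at ZT19.6 ± 0.987 h (SE), but missed the threshold with TMM (adjusted P = 0.0563; JTK exact P = 0.467).

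The normalization changed both calls. After cyclic loess, peak 4 passed (adjusted P = 0.0360) and peak 7 did not (0.490), and with library totals alone both passed (0.0366 and 0.0320). The other called sites split in the same way by position. Mlxipl peaks 5 and 6, between the start sites in intron 1, were called with maxima at night. Peak 5 (chr5:135093653-135094555) had 201, 209.6, 135, 121, 125, 264, 273 and 192 from ZT0 to ZT21. It was lowest at ZT9, with 121 (101 to 144), and highest at ZT18, with 273 (242 to 308), the largest ratio of the locus (2.26), with an estimated peak at ZT19.7 ± 0.970 h (SE) (adjusted P = 0.0475). Peak 6 (chr5:135100364-135101618) had 238, 242, 187, 181, 194, 234, 319.7 and 263 from ZT0 to ZT21. It was low from ZT6 to ZT12 and highest at ZT18, with an estimated peak at ZT20.1 ± 0.937 h (SE) (adjusted P = 0.0371). Downstream of the second start site the 3 called peaks had daytime maxima: peak 9 in intron 2 (JTK exact P = 0.0260, the same after cyclic loess; cosine adjusted P = 0.0641), peak 11 in intron 2 (adjusted P = 0.0180) and peak 12 over the last exon (adjusted P = 0.0485), with estimated peaks at ZT6.79, ZT8.39 and ZT8.27. Peak 12 (chr5:135137128-135137931) had 143, 159.8, 219, 200.1, 162, 177, 129 and 127 from ZT0 to ZT21, high at ZT6 and ZT9 and low at ZT18 and ZT21. The JTK-cycle call of peak 9 was lost without ZT6, ZT9 or ZT18 (up to 0.161), and its cosine adjusted P value after cyclic loess was 0.183. The call of peak 11 was lost without ZT18 (adjusted P = 0.0844) and that of peak 12 without any of ZT0, ZT6, ZT9, ZT15, ZT18 or ZT21 (up to 0.168). Leaving out single libraries gave adjusted P values of 0.0156 to 0.179 for peak 5, 0.0216 to 0.160 for peak 6 and 0.00893 to 0.101 for peak 7. The calls of peaks 5 and 6 were lost without any of ZT6, ZT9, ZT12, ZT15 or ZT18, and that of peak 7 without ZT6 or ZT18. After cyclic loess peaks 5 and 6 missed the threshold narrowly (adjusted P = 0.0538 and 0.0508). The other 6 peaks of the locus had mean counts of 92.4 to 1603 and ratios of highest to lowest value of 1.32 to 1.89, and none was called.

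**Figure D2:**
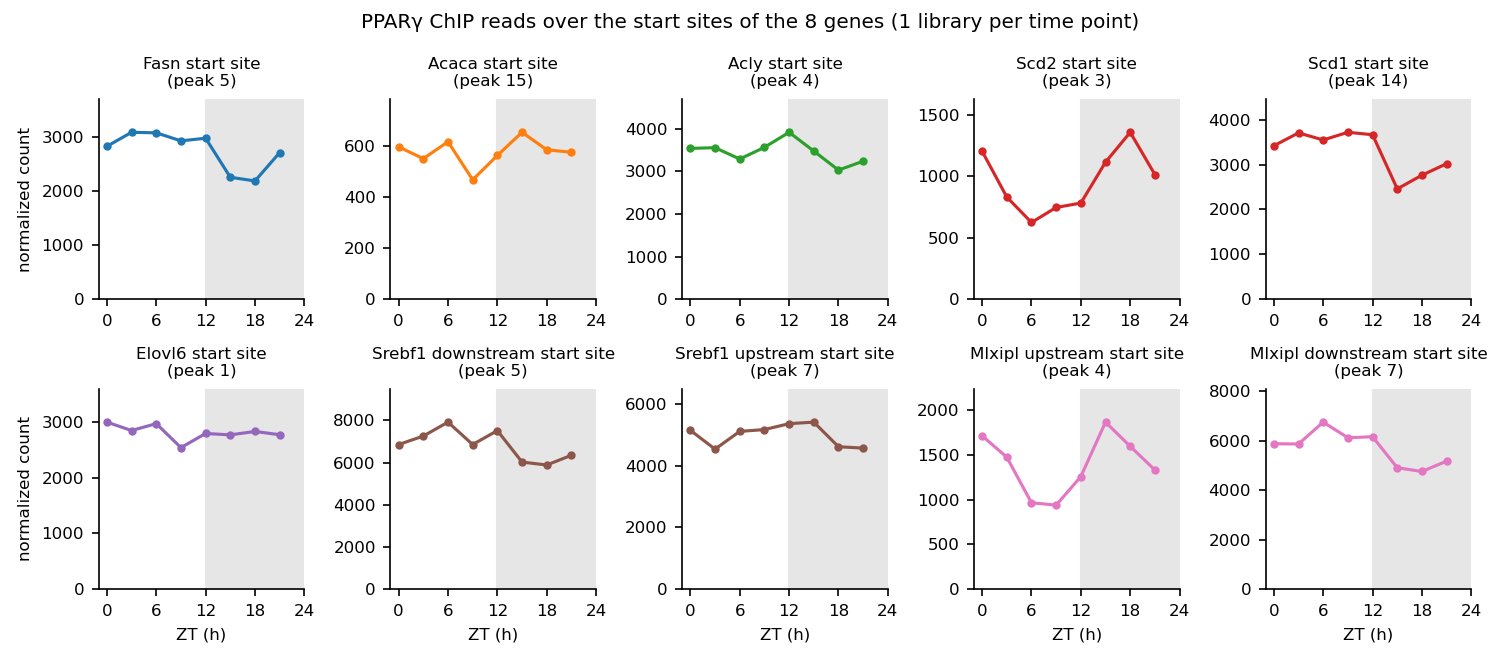
Normalized counts (y axis, from 0) at 8 time points (x axis, ZT in h, dark phase shaded) for the 10 peaks that cover a start site of the 8 genes, 1 library per point. The Scd2 and the upstream Mlxipl start sites are lowest at ZT6 to ZT9, the Fasn, Scd1 and downstream Mlxipl start sites are lowest at ZT15 to ZT18, and the Acaca, Acly, Elovl6, upstream Srebf1 and upstream Mlxipl start sites were not called with TMM.

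Acly and Acaca, which act before Fasn in the pathway, showed little change at their start sites. Acly peak 4 (chr11:100523265-100529513), over the start site, was the strongest of its locus and had 3535, 3552, 3286, 3560, 3913, 3472, 3027 and 3235 from ZT0 to ZT21. It was highest at ZT12 and lowest at ZT18, a ratio of 1.29, and neither test called it (cosine adjusted P = 0.450; JTK exact P = 1.00), nor after cyclic loess (adjusted P = 0.419). Of the weaker sites around it, JTK-cycle called peaks 3 and 6. Acly peak 3 in intron 6 (chr11:100517951-100520024) had 707, 754, 787, 868, 683, 525, 560.2 and 736 from ZT0 to ZT21, with a steady rise to ZT9 and the lowest values at ZT15 and ZT18. JTK-cycle called it (exact P = 0.0260), a call lost without ZT0, ZT12, ZT15, ZT18 or ZT21, and the cosine did not (adjusted P = 0.0586, estimated peak ZT5.11 ± 1.03 h (SE)). Acly peak 6 (chr11:100541037-100542091), 13.6 kb upstream, had the smallest P value that JTK-cycle can give (0.000744). Its counts were 114, 101, 97.2, 102, 127, 171, 135 and 111 from ZT0 to ZT21, a single rise to ZT15. Its JTK-cycle call held with each library left out and after cyclic loess (exact P = 0.00595), while the cosine did not call it (adjusted P = 0.0732, estimated peak ZT16.0 ± 1.13 h (SE)). This is a weak peak, which was lowest at ZT6, with 97.2 (79.9 to 118), and highest at ZT15, with 171 (147 to 198). Over the 7 Acly peaks edgeR's cosine called 0, with 2 at an unadjusted P value under 0.05, and DESeq2 called 1. Of all 66066 peaks, 20687 had an unadjusted cosine P value under 0.05 and DESeq2 called 9933. The 2 of 7 and 1 of 7 are thus near the shares of all peaks. The other 4 peaks of the locus had mean counts of 76.3 to 2758 and ratios of highest to lowest value of 1.20 to 1.85, and none was called.

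Acaca had the most peaks, of which 24 of 28 (85.7%) were called by neither test, close to the 81.7% of all peaks. Acaca peak 15 (chr11:84194192-84197305), over the start site, had 598, 551, 618, 469, 564, 655, 586 and 577 from ZT0 to ZT21. The value at ZT9 was the lowest and the rest lay close together, and it was not called (cosine adjusted P = 0.685; JTK exact P = 1.00). The strongest peak of the locus, Acaca peak 9 (chr11:84173889-84181841), 17.6 kb upstream, was flatter still. It had 3158, 2955, 3008, 2849, 3307, 3091, 3002 and 2904 from ZT0 to ZT21. It was lowest at ZT9, with 2849 (2747 to 2955), and highest at ZT12, with 3307 (3194 to 3423), and the amplitude was 0.028 ± 0.044 (SE) (adjusted P = 0.875). After cyclic loess normalization JTK-cycle called this peak (exact P = 0.0260) and the cosine did not (adjusted P = 0.0900). Of the 28 peaks, 20 (71.4%) had an estimated peak in the dark phase, compared with 51.3% of all peaks, and 10 were lowest at ZT9, compared with 9.91% of all peaks. The 4 called peaks were called by 1 test each. Acaca peak 19 in intron 3 (chr11:84218311-84220173) had 443, 727, 715, 496, 509.5, 402, 374 and 479 from ZT0 to ZT21. Binding there was high at ZT3 and ZT6 only, and the cosine called it (amplitude 0.41 ± 0.081 (SE), estimated peak ZT5.08 ± 0.754 h (SE), adjusted P = 0.0125), a call lost without ZT6 or ZT18 (adjusted P up to 0.0740). Acaca peak 27 in intron 45 (chr11:84364680-84366030) went the other way, with 151, 72.7, 87.4, 74.3, 69.9, 165, 152 and 119 from ZT0 to ZT21. All values from ZT15 to ZT0 were above those from ZT3 to ZT12, giving the largest amplitude of all members (0.56 ± 0.14 (SE), estimated peak ZT19.2 ± 0.938 h (SE), adjusted P = 0.0382), while JTK-cycle did not call it (exact P = 1.00). The range with single libraries left out was 0.0226 to 0.118, above 0.05 without any of ZT6, ZT9, ZT12, ZT15 or ZT18. The remaining called sites, Acaca peaks 2 and 3 (chr11:84115579-84116169 and chr11:84121233-84121928), lie in introns of the neighbour Tada2a and rose to ZT18 (JTK exact P = 0.0260 for each), with cosine adjusted P values of 0.0925 and 0.169. Peak 2 had 158, 137, 128, 114, 161, 171, 186 and 161 from ZT0 to ZT21, and peak 3 had 111, 103, 95.2, 85.2, 97.6, 114, 129 and 117 from ZT0 to ZT21. Both were lowest by day, and the call of peak 2 was lost after cyclic loess (exact P = 0.0826) and without ZT12, ZT15, ZT18 or ZT21 (up to 0.161). The other 22 peaks of the locus had mean counts of 76.8 to 2412 and ratios of highest to lowest value of 1.17 to 2.33, and none was called.

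At Fasn, binding at a peak that reaches into the 3′ end of the gene was high at night and binding at the start site was high by day. Fasn peak 3 (chr11:120802322-120806048) lies mostly past the 3′ end of the gene, with its centre between genes and 20.4 kb from the Fasn start site. The start site nearest to its centre is that of the neighbour Dus1l. Fasn peak 3 holds the repeat DR1 printed above. Its counts were 739.7, 557, 479, 462, 479, 670.4, 861 and 699.9 from ZT0 to ZT21. They fell from ZT0 to a low plateau from ZT6 to ZT12 and rose to ZT18. Both tests called it (JTK exact P = 0.00595; cosine amplitude 0.43 ± 0.065 (SE), estimated peak ZT20.0 ± 0.581 h (SE), adjusted P = 0.00346), and with each library left out the adjusted P values were 0.00218 to 0.0276. Fasn peak 5 (chr11:120820802-120825402), over the start site and intron 1, had 2822, 3081, 3071, 2923, 2972, 2251, 2184 and 2707 from ZT0 to ZT21. These were even from ZT0 to ZT12 and lower at ZT15 and ZT18. The cosine called it (amplitude 0.22 ± 0.050 (SE), estimated peak ZT5.32 ± 0.853 h (SE), adjusted P = 0.0257) and JTK-cycle did not (exact P = 0.0826). Fasn peak 7 (chr11:120829298-120832819), 6.51 kb upstream of the start site in intron 18 of Ccdc57, was the strongest of the locus and had 2931, 2964, 3192, 2978, 2859, 2307, 2344 and 2675 from ZT0 to ZT21. It followed the start-site peak, and both tests called it (JTK exact P = 0.0260; adjusted P = 0.0193, estimated peak ZT5.16 ± 0.807 h (SE)).

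The values at peaks 5 and 7 at ZT18 and ZT15 were 79.4% and 83.0% of their own means, respectively, compared with medians of 94.6% and 93.8% over all strong peaks. After cyclic loess the cosine called neither (adjusted P = 0.164 and 0.169), and the calls were also lost without ZT6, ZT15 or ZT18, with values up to 0.182 and 0.130. The JTK-cycle call of peak 7 was lost after cyclic loess and with library totals alone (exact P = 0.212 in each). Fasn peak 3 kept its calls after cyclic loess (JTK exact P = 0.00595; adjusted P = 0.00471). Near it, Fasn peak 2 (chr11:120800054-120800710), also nearest to the Dus1l start site, had the largest ratio of the locus (2.21) and the opposite course. It had 251, 274, 374, 399, 414, 280.4, 187 and 279.5 from ZT0 to ZT21. It was lowest at ZT18, with 187 (162 to 217), and highest at ZT12, with 414 (375 to 456), with a cosine adjusted P value of 0.0236 and an estimated peak at ZT8.76 ± 0.859 h (SE). Its call was lost without any of ZT6, ZT9, ZT12, ZT15 or ZT18 (up to 0.0758). The other 5 peaks of the locus had mean counts of 85.3 to 329 and ratios of highest to lowest value of 1.21 to 1.75, and none was called.

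Elovl6 had the most called sites, 10 of 24 (41.7%) by at least 1 test compared with 18.3% of all peaks, and its start site was not among them. Elovl6 peak 1 (chr3:129530453-129534729) had 2994, 2843, 2966, 2537, 2790, 2765, 2826 and 2768 from ZT0 to ZT21. The highest value was 1.18 times the lowest, and it was not called (cosine adjusted P = 0.624, after cyclic loess 0.116; JTK exact P = 1.00). The 7 peaks from the start site to 26.1 kb into intron 2 were called by neither test, with 1 of them at an unadjusted cosine P value under 0.05 and 0 called by DESeq2. Beside these, 20687 of all 66066 peaks had an unadjusted cosine P value under 0.05 and DESeq2 called 9933. From 33.9 to 81.9 kb, in introns 2 and 3, 8 of 10 peaks were called by at least 1 test, all 10 had an estimated peak between ZT4.40 and ZT9.36, and 9 of the 10 were lowest at ZT15 or ZT18. This stretch was marked off after the values were seen. Elovl6 peak 14 (chr3:129601775-129605136), in intron 2, had 1176, 1491, 1887, 1643, 1784, 1088, 929.9 and 1225 from ZT0 to ZT21. It was high from ZT6 to ZT12 and low from ZT15 to ZT0. Both tests called it (JTK exact P = 0.0260; cosine amplitude 0.43 ± 0.071 (SE), estimated peak ZT7.35 ± 0.626 h (SE), adjusted P = 0.00518), the cosine also after cyclic loess (0.0102) and with each library left out (0.00242 to 0.0433). The JTK-cycle call was lost without ZT0, ZT6, ZT15, ZT18 or ZT21 (up to 0.161).

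The strongest sites of the gene, Elovl6 peaks 10 and 12, followed the same course. Peak 10 (chr3:129578770-129586576), which holds the DR1 printed above, had 2748, 4241, 4308, 4079, 4027, 2846, 2704 and 3361 from ZT0 to ZT21. Binding was high from ZT3 to ZT12 and low at ZT15, ZT18 and ZT0, with ZT21 in between. The amplitude was 0.33 ± 0.065 (SE) with an estimated peak at ZT6.93 ± 0.762 h (SE) (adjusted P = 0.0138; JTK exact P = 0.0260). Peak 12 (chr3:129589738-129594880) had 2945, 3911, 4411, 4064, 4052, 2954, 2644 and 3271 from ZT0 to ZT21. It was highest at ZT6 and lowest at ZT18 (adjusted P = 0.00582; JTK exact P = 0.0260). After cyclic loess the adjusted P values were 0.0720 for peak 10 and 0.0301 for peak 12, and without ZT18 they were 0.0865 and 0.0513. Both JTK-cycle calls were lost after cyclic loess (exact P = 0.915 and 0.0826) and with library totals alone (0.212 and 0.0826). The largest ratio of highest to lowest of any member was that of Elovl6 peak 21 in intron 3 (chr3:129625359-129626060). Its counts were 291, 257, 442, 332, 310.2, 155, 172 and 275 from ZT0 to ZT21. The value at ZT6 stood above the rest and those at ZT15 and ZT18 below, the cosine called it (amplitude 0.51 ± 0.12 (SE), estimated peak ZT5.61 ± 0.909 h (SE), adjusted P = 0.0338), and JTK-cycle did not (exact P = 0.467). Its call was lost without ZT6, ZT9, ZT15 or ZT18 (up to 0.187). Beyond the gene, Elovl6 peak 23 (chr3:129645404-129645966) was lowest at ZT18, with 62.5 (48.5 to 80.4), and highest at ZT9, with 160.5 (138 to 187), called by JTK-cycle only (exact P = 0.0260; cosine adjusted P = 0.0570). That call of peak 23 was lost without ZT0, ZT6, ZT9, ZT18 or ZT21 (up to 0.161). The other called Elovl6 peaks (8, 9, 15, 16 and 17) had highest to lowest ratios of 1.58 to 2.03. With single libraries left out, the cosine adjusted P values were 0.00759 to 0.0860 for peak 8, 0.0350 to 0.118 for peak 15 and 0.0332 to 0.210 for peak 16, above 0.05 without ZT0, ZT6, ZT9, ZT12 or ZT18 in each and, for peaks 15 and 16, also without ZT15 or ZT21. The other 13 peaks of the locus had mean counts of 71.3 to 741 and ratios of highest to lowest value of 1.13 to 1.93, and none was called.

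The desaturase genes Scd1 and Scd2, which encode close relatives, were bound at both start sites, and the fitted maxima lay in opposite phases of the day. Scd1/Scd2 peak 3 (chr19:44292939-44296194) covers the start site of Scd2 and had 1203, 831, 624, 746, 782, 1114, 1357 and 1013 from ZT0 to ZT21. Binding was lowest at ZT6 and highest at ZT18, a ratio of 2.18. Scd1/Scd2 peak 14 (chr19:44404732-44409076) covers the start site of Scd1 and had 3419, 3706, 3548, 3719.5, 3665, 2458, 2764 and 3019.5 from ZT0 to ZT21. It was even from ZT0 to ZT12, fell by ZT15 and rose again to ZT21. Both tests called the Scd2 start site (JTK exact P = 0.0260; cosine amplitude 0.47 ± 0.074 (SE), estimated peak ZT19.4 ± 0.602 h (SE), adjusted P = 0.00443), and the cosine call held with each library left out (0.00100 to 0.0373) and after cyclic loess (0.00477). The JTK-cycle call was lost without ZT18 (exact P = 0.161) and with a period of 24 h alone (exact P = 0.113). The Scd1 start site was called by the cosine (amplitude 0.25 ± 0.056 (SE), estimated peak ZT5.68 ± 0.862 h (SE), adjusted P = 0.0272) and not by JTK-cycle (exact P = 0.467), and not after cyclic loess (adjusted P = 0.198). Without ZT9, ZT15 or ZT18 it was not called either (up to 0.126). Per length, binding was higher at Scd1, with 757 normalized counts per kb compared with 295 at Scd2.

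The strongest site of the locus was Scd1/Scd2 peak 11 (chr19:44386014-44390903), 19.2 kb from the Scd1 start site and past its 3′ end. Its counts were 5025, 5224, 5759, 5452, 5354, 4192, 3888 and 4451 from ZT0 to ZT21. They were high from ZT0 to ZT12 and low from ZT15 to ZT21, and both tests called it (JTK exact P = 0.0260; adjusted P = 0.00649, estimated peak ZT6.30 ± 0.648 h (SE)). At ZT18 it stood at 79.1% of its own mean, compared with 94.6% over all strong peaks. After cyclic loess it was called by neither test (JTK exact P = 0.915; adjusted P = 0.154), and without ZT18 the adjusted P value was 0.0710. Scd1/Scd2 peak 15 (chr19:44414693-44419840), 9.56 kb upstream of Scd1, was nearly as strong, with 5003, 5553, 4959, 5562, 5092, 4683, 4301 and 4107 from ZT0 to ZT21. It had a daytime maximum (adjusted P = 0.0441; 0.808 after cyclic loess), and the call was lost without any of ZT3, ZT9, ZT12, ZT15, ZT18 or ZT21 (up to 0.188). Around Scd2 the other called site was Scd1/Scd2 peak 4 (chr19:44305653-44306661), over the last exon of Scd2. It had 139.7, 107, 103, 116, 118, 142, 174 and 121 from ZT0 to ZT21. It was lowest at ZT6, with 103 (85.2 to 125), and highest at ZT18, with 174 (149 to 202), and JTK-cycle called it (exact P = 0.00595) while the cosine did not (adjusted P = 0.128, estimated peak ZT18.1 ± 1.31 h (SE)). Of the 16 peaks of the window, 8 were lowest at ZT6, compared with 16.4% of all peaks. The other 11 peaks of the locus had mean counts of 56.8 to 3649.5 and ratios of highest to lowest value of 1.30 to 2.04, and none was called.

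The ratio of start-site peaks within a library does not depend on the scaling of that library. For the start site of Scd2 over that of Scd1 the ratio was 0.352, 0.224, 0.176, 0.201, 0.213, 0.453, 0.491 and 0.336 from ZT0 to ZT21. Each value from ZT15 to ZT0 was above each from ZT3 to ZT12, a range of 2.79 times. For the upstream over the downstream start site of Mlxipl it was 0.292, 0.252, 0.143, 0.154, 0.205, 0.382, 0.337 and 0.258 from ZT0 to ZT21. This ratio was lowest at ZT6 and ZT9 and highest at ZT15 and ZT18, a range of 2.66 times. The upstream over the downstream start site of Srebf1 gave 0.751, 0.625, 0.646, 0.754, 0.713, 0.898, 0.784 and 0.720 from ZT0 to ZT21. It was highest at ZT15, and its range of 1.44 times was smaller. After cyclic loess the ranges were 2.43, 2.30 and 1.41 times, with the highest and lowest at the same times. In each pair the numerator is the weaker peak. The ratios were calculated after the values were seen and are given without a test.

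**Figure D3:**
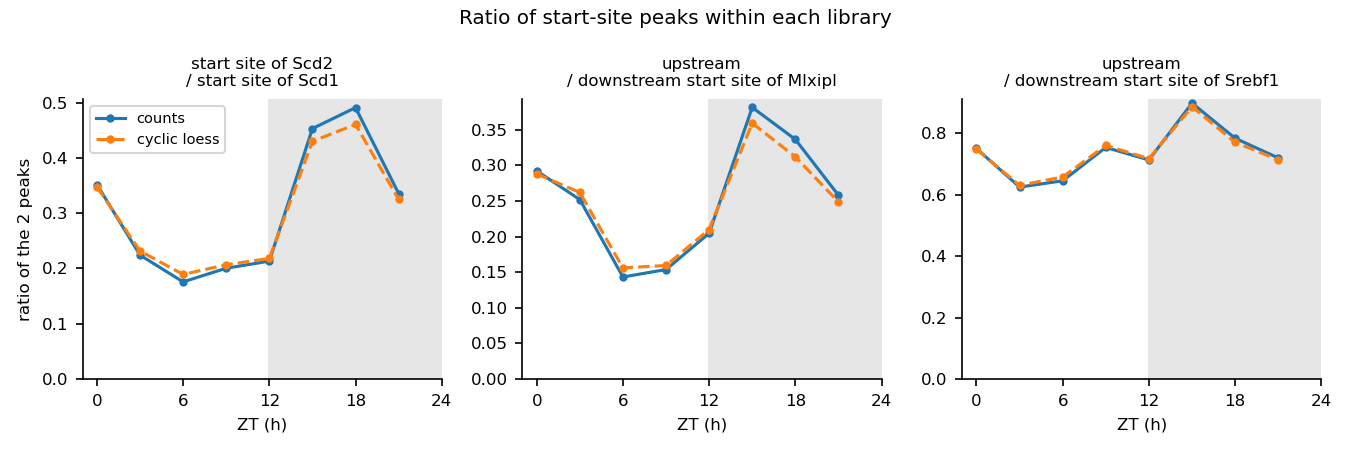
Ratio of start-site peaks (y axis, from 0) at 8 time points (x axis, ZT in h, dark phase shaded), from counts (solid) and after cyclic loess (dashed), 1 library per point. The Scd2 to Scd1 ratio is lowest at ZT6 (0.176) and highest at ZT18 (0.491), and the Mlxipl ratio goes from 0.143 at ZT6 to 0.382 at ZT15.

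Binding was also summed over all peaks of a locus. By arithmetic, a sum cannot have a larger ratio of highest to lowest value than the site of the locus that moved most. The Elovl6 sum moved most, being 20306 (20033 to 20583) at ZT6 against 14101 (13866 to 14341) at ZT18, a ratio of 1.44. The Scd1/Scd2 sum was 25294 (24986 to 25606) at ZT9 against 19730 (19453 to 20011) at ZT21, a ratio of 1.28. The Fasn sum was 8281 (8107 to 8459) at ZT6 against 6587 (6432 to 6745) at ZT15, a ratio of 1.26. The ratios of the Srebf1, Mlxipl, Acly and Acaca sums were 1.18, 1.17, 1.16 and 1.15. The Acaca sum was the only one of the 7 that was highest later than ZT12, at ZT15. A few strong peaks made up each sum, and the strongest alone held 20.5% of it at Acaca and Elovl6 and 47.1% at Mlxipl. All strong peaks of the table stood at a median of 106% of their own mean at ZT6 and 93.8% at ZT15. The sums were not calculated after cyclic loess, and whether they moved beyond this trend was not tested.

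**Figure D4:**
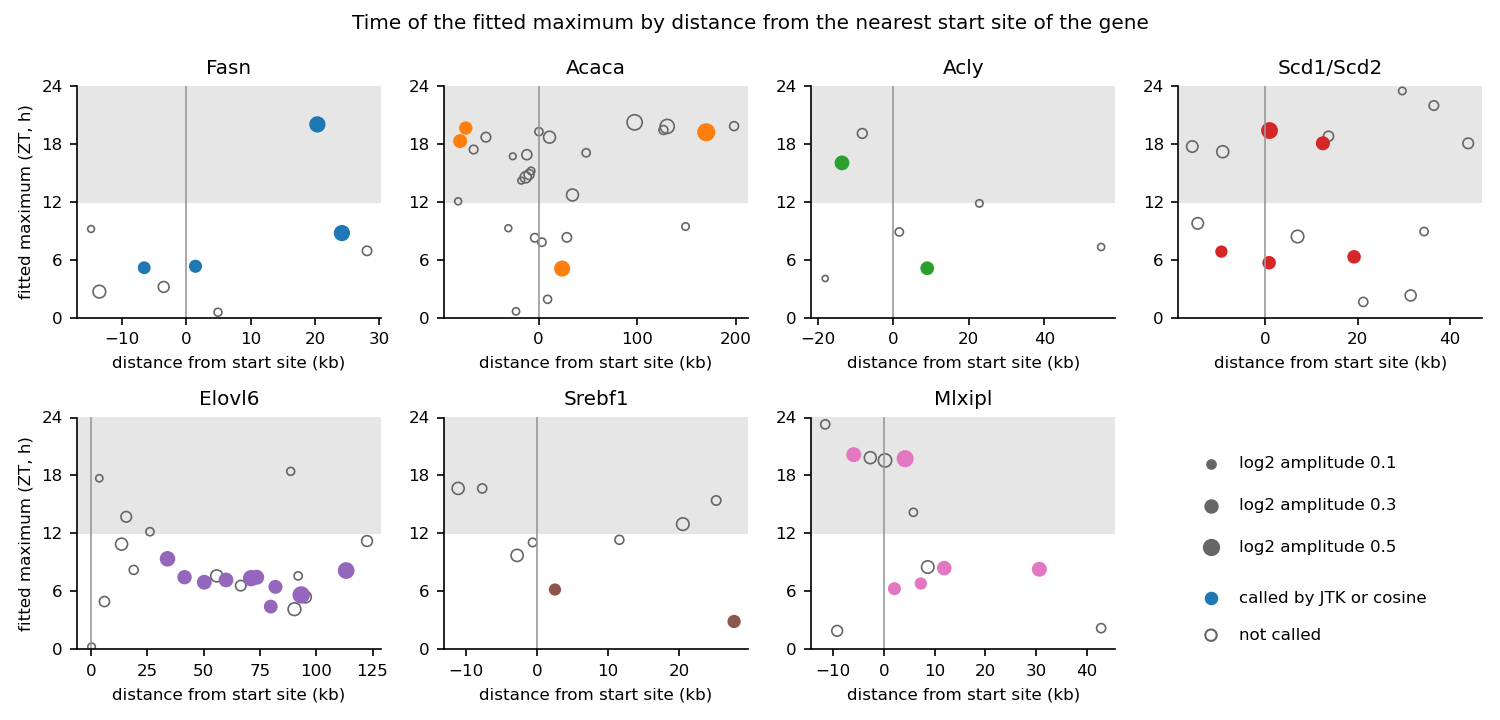
Estimated peak time (y axis, ZT in h, dark phase shaded) of each member peak by the distance of its centre from the nearest start site of its gene (x axis, kb, positive in the direction of transcription), with the point area growing with the cosine log2 amplitude and filled points called by JTK-cycle or the cosine. The called Elovl6 sites lie between ZT4.40 and ZT9.36 from 33.9 kb on. At Mlxipl, distances are from the nearer of 2 start sites, so the points do not follow their order along the gene. Called Mlxipl peaks 5 and 6 (at 4.21 and -5.90 kb) lie in the dark phase. Called Mlxipl peaks 7, 9, 11 and 12 (from 2.11 to 30.6 kb) lie in the light phase.

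Timing went together with strength among the members. Of the 27 members with a mean count of 1000 or more, 22 (81.5%) had an estimated peak in the light phase with TMM, compared with 74.4% of all strong peaks. After cyclic loess the shares were 44.4% and 49.2%. For the 79 weaker members they were 49.4% with TMM and 53.2% after cyclic loess, compared with 45.3% and 48.1% of all weaker peaks. The number of members called by the cosine was 10 of 27 among the strong with TMM and 3 of 27 after cyclic loess, and 14 and 13 of 79 among the weaker. Of the 10 strong members called with TMM, all in the light phase, 9 still had their estimated peak there after cyclic loess, all but Srebf1 peak 5. These 10 were picked by their TMM call. The amplitudes of the 9 after cyclic loess were as low as 0.040 (Scd1/Scd2 peak 15), where a fitted time says little. Among the 17 strong members not called, 12 had an estimated peak in the light phase with TMM and 3 after cyclic loess.

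**Figure D5:**
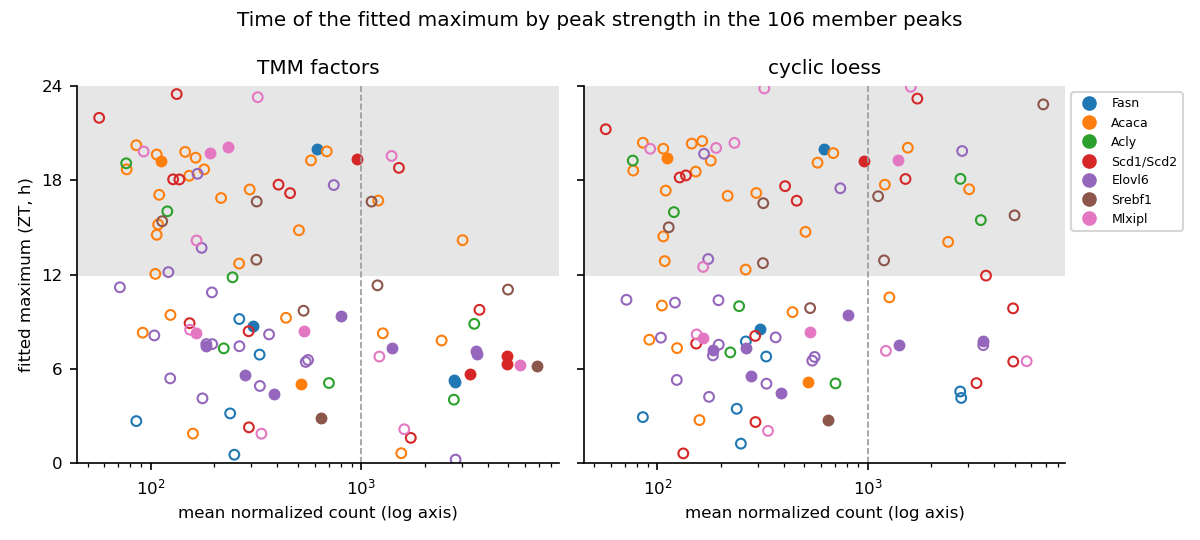
Estimated peak time (y axis, ZT in h, dark phase shaded) by mean normalized count (x axis, log scale) of the 106 member peaks with TMM (left) and cyclic loess (right). Filled points were called by the cosine, and the dashed line is at 1000. With TMM, 22 of the 27 points right of the line lie in the light phase, and after cyclic loess 12 do.

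Peaks at other genes of the pathway, taken by nearest start site from a list of 26 genes, were also counted. Of these genes 23 had peaks, 132 in all, of which JTK-cycle called 18 (13.6%) and the cosine 14 (10.6%), beside 11.6% and 13.4% of all peaks. Among 7 genes of carbon supply and NADPH production the cosine called 2 of 30 peaks, among 8 genes of synthesis, elongation and desaturation 9 of 61, and among 11 regulators 3 of 41. Acacb, the mitochondrial acetyl-CoA carboxylase, had 4 of 9 peaks called by the cosine, all in the light phase. Its peak in the gene at chr5:114175282-114180623 ranged from 3243 at ZT18 to 5486 at ZT6, with an amplitude of 0.31 ± 0.046 (SE) and an estimated peak at ZT6.21 ± 0.560 h (JTK exact P = 0.000744; cosine adjusted P = 0.00269). Elovl5, an elongase of polyunsaturated fatty acids, had 2 of 18 peaks called by the cosine, both at night. The larger change was at chr9:77845505-77847358, upstream of the gene, with 329 normalized counts in the ZT6 library and 1187 in the ZT18 library, an amplitude of 0.76 ± 0.15 (SE) with an estimated peak at ZT18.3 ± 0.746 h (JTK exact P = 0.0260; adjusted P = 0.0158).

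At start sites of the list, Fads1, a desaturase of polyunsaturated fatty acids, went from 160 at ZT6 to 298 at ZT18 (JTK exact P = 0.00595; cosine adjusted P = 0.0397). Nr1h3, encoding liver X receptor α, went from 1631 at ZT15 to 2264 at ZT6 (JTK exact P = 0.0260; adjusted P = 0.0333). Thrsp, encoding the lipogenic protein Spot 14, went from 5484 at ZT15 to 7881 at ZT6 (JTK exact P = 0.212; adjusted P = 0.0213). After cyclic loess the adjusted P values were 0.0545 for Fads1, 0.112 for Nr1h3 and 0.801 for Thrsp, so that the cosine called none of these start sites, and for the Acacb peak given above the value was 0.0312. The start site of Tecr, a reductase of fatty acid elongation, went from 916 at ZT9 to 1180 at ZT18 and was called by JTK-cycle only (exact P = 0.00595; cosine adjusted P = 0.165), also after cyclic loess (exact P = 0.0260).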

How the data were processed

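PPARγ ChIP-seq reads of 8 pooled iBAT libraries were mapped by the authors to mm10 with BWA 0.7.17, and peaks were called in each library with MACS2 2.1.2 and kept where found in at least 6 of the 8 libraries, per the methods. The deposited table holds raw counts of reads per peak (66066 peaks), which the authors obtained with HTSeq 1.99.2, and it was used as deposited. An input library of ZT12 is among the labels and was not used here. Because the counted peaks were chosen from the same libraries, sites bound at few time points are not in the table. Windows, gene lists, named peaks and tests were chosen with earlier results of these data known.

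Counts were normalized with TMM in edgeR 4.0.16 (R 4.3.3). JTK-cycle was rewritten in Python 3.11.15 with its exact null distribution for 8 values and periods of 21 and 24 h, Bonferroni-adjusted over 15 combinations of period and lag. The cosine was fitted with edgeR's quasi-likelihood method (5 residual degrees of freedom, common dispersion 0.0116). Both were tested on simulated data. Of 200 oscillating peaks among 5000 simulated ones, with a median fitted log2 amplitude of 0.772, larger than that of any member, the cosine found 200, with 13 false calls, and JTK-cycle found 158, with 82 false calls. Peaks were assigned to genes with curated RefSeq transcripts of GRCm38.p6. The labels and row names do not say whether peak starts count from 0 or 1, and coordinates are printed as the row names give them.

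The peaks named with values were, for each locus, those over a start site, the strongest, the peak with the largest ratio of highest to lowest value among those with a mean count of at least 100, and those called by either test, in full for the 3 with the largest amplitude of a locus. Alternatives were library totals, DESeq2 1.42.0 size factors, upper-quartile factors and cyclic loess (limma 3.58.1) for normalization, a 24-h period alone, a threshold of 0.01, DESeq2's likelihood ratio test, a mean count of at least 100, each library left out, and members assigned by nearest start site. The fits after cyclic loess, the classes by strength and the ratios of start-site peaks were added after the data were seen.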

Additional observations from a re-analysis of the deposited data

How the results depend on the processing

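Among the members, JTK-cycle called 15 to 20 peaks and the cosine 16 to 31, compared with 18 and 24, under the other normalizations, a period of 24 h alone, a mean count of at least 100 and DESeq2's likelihood ratio test. With a period of 24 h alone, 13 of the 18 JTK-cycle calls were kept. Those lost were Acly peak 3 (exact P = 0.249), Scd1/Scd2 peak 3 and Elovl6 peaks 12, 14 and 23 (exact P = 0.113 each). At a threshold of 0.01 JTK-cycle called 6 members and 3079 of all peaks, and the cosine 5 and 2243. With 1 library left out, JTK-cycle called 13 to 23 members and 7396 to 10802 of all peaks. The cosine then called 3 (without ZT18) to 31 (without ZT3) members and 3067 to 11203 of all peaks, so its counts rest on the ZT18 library in particular, and the cause was not tested. By nearest start site, 65 peaks would be members, of which 54 lie in the windows and 0 are at Elovl6, whose called sites thus drop out. Most of the Elovl6 peaks go to Gm35986 by this rule, which starts within the same peak as Elovl6. JTK-cycle called 6 of the 65 (9.23%), below the 11.6% of all peaks, and the cosine 16 (24.6%), above the 13.4%. With at most 1 mismatch there were 10 DR1 elements in the members and with none there were 0. Of the values for named peaks, 436 were counted as keeping their side of the threshold, 103 lost the call and 20 gained it. The 1 value counted as reversed was the log2 amplitude of Srebf1 peak 5 after cyclic loess, 0.0032 with a maximum on the other side of the day (adjusted P = 0.997). The fitted maximum of Acly peak 4, which was not called, also moved by 6.60 h after cyclic loess, to ZT15.5. It was counted among the 436. Depth limited the weak peaks: in 13 of 106 members the counting intervals of the highest and lowest library overlapped. These libraries were picked for each peak by its own values, which favours intervals that do not overlap. The share of overlaps over all peaks was not counted, so the number for the members has nothing to be compared with. No paired analysis was possible because each time point is a single library.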
